A study of Mus musculus with 9 samples.

Results

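The let-7 and miR-98 guide strands are the 5p mature miRNAs let-7a-5p, let-7b-5p, let-7c-5p, let-7d-5p, let-7e-5p, let-7f-5p, let-7g-5p, let-7i-5p and miR-98-5p. They were chosen by name, and they make up 9 of the 860 miRNAs measured. All 9 passed the filter on low values, which kept 489 miRNAs for testing. The libraries were small RNA sequencing libraries of subcutaneous fat from 9 mice, 3 in each of 3 genotypes that the labels call Homo KO, Hete KO and WT. Per the series' title, the knockout removes AGO1 in endothelial cells and the WT animals were littermates. Every mouse, WT included, was 24 weeks old and had been put at 8 weeks of age on high fat, high sucrose feed, which it ate for 16 weeks. The labels do not spell out the abbreviations Homo and Hete, and the sources used here give neither the promoter that drives the deletion nor the strain and sex of the animals. Each library came from an individual mouse. Ago1 is an mRNA and was not measured in these libraries, so the genotype labels could not be checked against it.

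let-7 was found in the worm Caenorhabditis elegans as a regulator of developmental timing, and its sequence is conserved from worms to mammals. Its guide strands are loaded into Argonaute proteins, of which AGO1 is a member, and pair through the seed near their 5′ end with sites in target mRNAs such as those of the chromatin protein HMGA2, of RAS and of components of insulin and insulin-like growth factor signalling. The RNA-binding protein LIN28 blocks the maturation of let-7 precursors. In fat tissue let-7 is known for its rise as preadipocytes differentiate, and in mice for effects on glucose tolerance.

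The mature sequences are shown because all 9 members share a seed and differ elsewhere by only a few bases, which bears on how reads are assigned to them. They are given 5′ to 3′ from RefSeq (GRCm38.p6), where all 9 members were matched, with the seed, bases 2 to 8, in capitals.
let-7a-5p: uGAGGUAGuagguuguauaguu
let-7b-5p: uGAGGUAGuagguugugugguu
let-7c-5p: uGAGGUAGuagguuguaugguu
let-7d-5p: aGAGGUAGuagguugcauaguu
let-7e-5p: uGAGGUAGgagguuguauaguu
let-7f-5p: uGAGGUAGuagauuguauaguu
let-7g-5p: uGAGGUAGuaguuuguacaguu
let-7i-5p: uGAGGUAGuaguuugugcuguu
miR-98-5p: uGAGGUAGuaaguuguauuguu

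Each member was 22 bases long, and the seed GAGGUAG was the same in all 9. Counted from 1 at the 5′ end, and with the base of let-7a-5p first, let-7c-5p differed from let-7a-5p by A19G, let-7e-5p by U9G and let-7f-5p by G12A. let-7b-5p differed by A17G and A19G, let-7d-5p by U1A and U16C, let-7g-5p by G12U and U18C, and miR-98-5p by G11A and A19U. let-7i-5p was the farthest from let-7a-5p, with G12U, A17G, U18C and A19U. Of the 36 pairs of members 4 differed at a single base, and the most distant pair, let-7d-5p and let-7i-5p, differed at 6. The sources used here do not say how the authors assigned reads with a mismatch, so reads may have been split between such neighbours, and the levels of let-7a-5p, let-7b-5p, let-7c-5p, let-7e-5p and let-7f-5p are uncertain to that extent. The same holds for let-7i-5p, which differs at 1 base over 22 positions from let-7j, a miRNA outside the members.

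In mouse the 9 sequences come from 12 hairpins on 7 chromosomes (coordinates of GRCm38.p6, which is mm10). let-7a-5p and let-7f-5p share the hairpin cluster of Mirlet7a-1 (chr13:48538179-48538272), Mirlet7f-1 (chr13:48537829-48537917) and Mirlet7d (chr13:48536012-48536114) on the minus strand, all of which overlap an exon of the lincRNA 6720427I07Rik. Further copies of them lie at Mirlet7a-2 (chr9:41536716-41536811, plus strand, in an intron of the lincRNA Gm49317) and Mirlet7f-2 (chrX:151912346-151912428, plus strand), which stands 786 bases upstream of Mir98 (chrX:151913214-151913321) in an intron of Huwe1. Mirlet7b (chr15:85707319-85707403) and Mirlet7c-2 (chr15:85706603-85706697) lie on the plus strand 622 bases apart in exons of Lncppara, and Mirlet7c-1 (chr16:77599657-77599750, plus strand) lies in an intron of Mir99ahg, 657 bases from Mir99a. Mirlet7e (chr17:17830352-17830444, plus strand) lies in an intron of Spaca6, 368 bases from Mir125a. Mirlet7g (chr9:106178840-106178927, plus strand) lies in an intron of Wdr82, and Mirlet7i (chr10:122985640-122985724, minus strand) overlaps an exon of the transcribed pseudogene D630033A02Rik. For let-7a-5p, let-7c-5p and let-7f-5p the measured level is the sum over both hairpins that give the same strand.

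The deposited values are logarithms to base 2, and the 100 highest ranks hold the same levels in all 9 libraries, the form that quantile normalization gives. A member's value is therefore its rank in a library, and a difference between mice is a step between shared levels. At the top these steps are large: 0.57 between ranks 1 and 2, and 0.61, or 1.53-fold, between ranks 12 and 13, against steps of 0.03 to 0.07 over ranks 65 to 82. The number of reads is unknown, and 63 to 152 miRNAs per library stood at the lowest value. Of the marker miRNAs, those of skeletal muscle (miR-206-3p, miR-133b-3p, miR-133a-3p and miR-1a-3p) varied most: together they made up 1.25%, 0.0456% and 0.0654% of the summed linear abundance in Homo KO mice 1 to 3, 0.485%, 16.8% and 0.298% in Hete KO mice 1 to 3, and 6.42%, 8.97% and 0.0722% in WT mice 1 to 3. Hete KO mouse 2, WT mouse 1 and WT mouse 2 thus stood apart, and a muscle miRNA high in rank moves the members below it down by 1 rank. All 4 muscle miRNAs were above the lowest value in every library except miR-206-3p, which was at it in 1 Homo KO library. The endothelial miR-126a strands summed to 3.06% to 3.35% in Homo KO, 2.10% to 3.28% in Hete KO and 3.43% to 4.52% in WT mice. The share of 4 leukocyte miRNAs was 0.292% to 0.372% in Homo KO, 0.192% to 0.269% in Hete KO and 0.211% to 0.263% in WT mice. For 4 fibroblast and mural cell miRNAs, miR-143-3p among them, the share was 16.5% in all Homo KO mice, 11.2% to 16.6% in Hete KO mice and 11.5% to 16.5% in WT mice. The 2 low shares, 11.2% in Hete KO mouse 2 and 11.5% in WT mouse 3, were those of the libraries where miR-143-3p held rank 2. It held rank 1 in the 7 others, so this share is bound to the step of 0.57 between these shared levels. Sums of 3 erythroid, 6 epithelial and 1 liver miRNA stayed at or below 0.485% in every library. In bulk tissue, fewer cells of a type and less RNA per cell cannot be told apart.

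The members were among the most abundant miRNAs in this fat tissue, and their order was nearly the same in every mouse. let-7a-5p had the highest mean level, 19.44 ± 0.25 on the log2 scale (SD, n = 9), and it exceeded let-7f-5p, at 18.89 ± 0.18, in 9 of 9 libraries, by 0.54 ± 0.31. let-7f-5p lay above let-7c-5p (18.74 ± 0.20) by 0.15 ± 0.14, in all libraries except WT mouse 3. let-7b-5p (18.03 ± 0.26), let-7e-5p (17.35 ± 0.30) and let-7g-5p (15.98 ± 0.17) followed in that order in 9 of 9 libraries.

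let-7d-5p (14.88 ± 0.22) and let-7i-5p (14.81 ± 0.18) did not differ beyond their spread: their difference within a library was 0.07 ± 0.36, and let-7d-5p was the higher in 6 of 9. miR-98-5p was the lowest, at 12.47 ± 0.28, below let-7i-5p by 2.34 ± 0.37 in 9 of 9 libraries. Members of 1 length were compared here, but the ease with which a sequence is ligated and amplified also sets its level in small RNA libraries, and its part in this order was not tested.

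**Figure D1:**
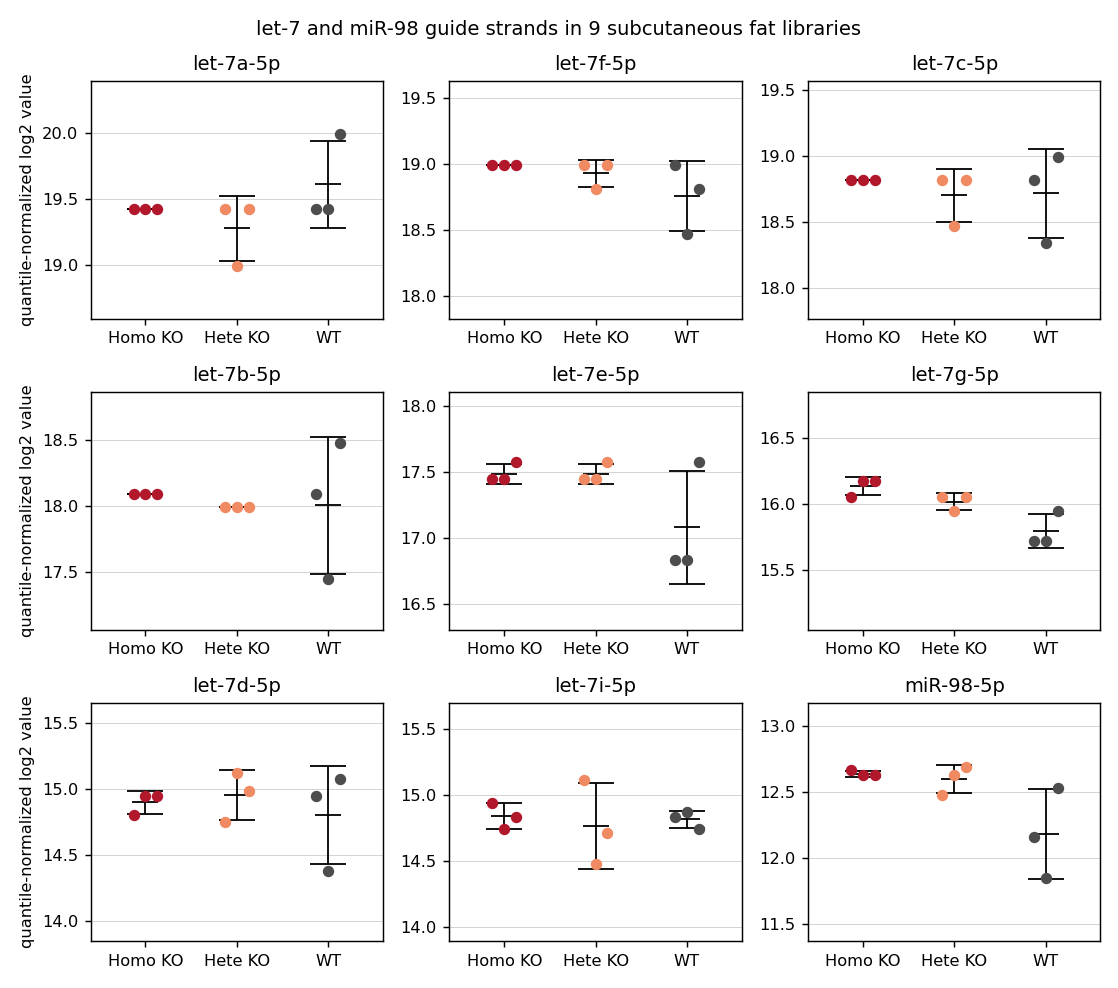
Quantile-normalized log2 value of each guide strand, 1 panel per miRNA and 1 point per mouse, in Homo KO, Hete KO and WT mice from left to right, with the mean and SD of 3 mice as bars; all panels span the same height on the log2 axis, around different centres. The 3 Homo KO points of let-7a-5p, let-7b-5p, let-7c-5p and let-7f-5p coincide because they hold the same rank level, and the WT points spread most in every panel except that of let-7i-5p.

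Of the most abundant members, let-7a-5p held rank 2, let-7f-5p rank 3 and let-7c-5p rank 4 in all 3 Homo KO libraries. let-7a-5p was at 19.42 in Homo KO mice 1, 2 and 3, at 19.42, 18.99 and 19.42 in Hete KO mice 1, 2 and 3, and at 19.42, 19.42 and 19.99 in WT mice 1, 2 and 3. It held rank 2, below miR-143-3p, in 7 libraries, rank 3 in Hete KO mouse 2, where miR-1a-3p and miR-143-3p stood above it, and rank 1 in WT mouse 3. The groups overlapped at the level of rank 2, and the log2 fold change was -0.19 ± 0.17 (SE) in Homo KO against WT (limma, Benjamini-Hochberg adjusted p = 0.507) and -0.33 ± 0.17 in Hete KO against WT (limma, adjusted p = 0.381).

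let-7f-5p was at 18.99 in all 3 Homo KO mice, at 18.99, 18.81 and 18.99 in Hete KO mice, and at 18.99, 18.47 and 18.81 in WT mice. WT mouse 1 held the level of the knockouts, so the groups overlapped. Its log2 fold change was 0.23 ± 0.13 (SE) in Homo KO (limma, adjusted p = 0.330) and 0.17 ± 0.13 in Hete KO (limma, adjusted p = 0.558), both against WT. let-7c-5p was at 18.81 in all 3 Homo KO mice, at 18.81, 18.47 and 18.81 in Hete KO mice, and at 18.81, 18.34 and 18.99 in WT mice. WT mouse 2 was the lowest library and WT mouse 3 the highest, and the log2 fold changes were 0.10 ± 0.17 in Homo KO (limma, adjusted p = 0.735) and -0.02 ± 0.17 in Hete KO (limma, adjusted p = 0.982).

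let-7b-5p was at 18.09 in all 3 Homo KO mice, at 17.99 in all 3 Hete KO mice, and at 18.09, 17.45 and 18.47 in WT mice. Both knockout groups lay inside the range of WT, and let-7b-5p and miR-30d-5p, a guide strand of the miR-30 family, held ranks 8 and 9 in Homo KO mice and the reverse in Hete KO mice. The log2 fold changes against WT were 0.09 ± 0.21 (SE) in Homo KO (limma, adjusted p = 0.799) and -0.01 ± 0.21 in Hete KO (limma, adjusted p = 0.988).

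let-7e-5p was at 17.45, 17.45 and 17.58 in Homo KO mice, at the same 3 values in Hete KO mice, and at 16.84, 16.84 and 17.58 in WT mice. WT mice 1 and 2 were below every knockout and WT mouse 3 equalled the highest of them, so the groups overlapped by that mouse. In both knockouts the log2 fold change against WT was 0.41 ± 0.19 (SE), with limma adjusted p = 0.215 in Homo KO and 0.331 in Hete KO. The low WT values were those of rank 13, which lies below rank 12 by the largest step in the range of any member, and these were the 2 WT libraries with the most muscle miRNA. With the 4 muscle miRNAs removed and the quantile normalization repeated, let-7e-5p was at 17.24, 17.24 and 17.53 in Homo KO mice, at 17.24, 17.53 and 17.53 in Hete KO mice, and at 17.24, 17.24 and 17.53 in WT mice. On these values the log2 fold change was 0.00 ± 0.12 in Homo KO (limma, adjusted p = 1) and 0.10 ± 0.12 in Hete KO (limma, adjusted p = 0.764).

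let-7g-5p was at 16.05, 16.17 and 16.17 in Homo KO mice, at 16.05, 15.94 and 16.05 in Hete KO mice, and at 15.72, 15.72 and 15.94 in WT mice. The 3 Homo KO mice were above all WT mice, while Hete KO mouse 2 and WT mouse 3 shared a level. Its log2 fold change was 0.34 ± 0.10 (SE) in Homo KO against WT, the smallest adjusted p of any member in that comparison but not under 0.05 (limma, adjusted p = 0.106), and 0.22 ± 0.10 in Hete KO against WT (limma, adjusted p = 0.348). With the muscle miRNAs removed and the normalization repeated it was at 16.09 in all 3 Homo KO mice, at 15.98, 16.09 and 15.98 in Hete KO mice, and at 15.85 in all 3 WT mice. All 6 knockouts then lay above all WT mice, with log2 fold changes of 0.24 ± 0.07 in Homo KO (limma, adjusted p = 0.0808) and 0.16 ± 0.07 in Hete KO (limma, adjusted p = 0.269).

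let-7d-5p was at 14.80, 14.95 and 14.95 in Homo KO mice, at 14.75, 15.12 and 14.99 in Hete KO mice, and at 14.95, 14.37 and 15.07 in WT mice. let-7i-5p was at 14.95, 14.75 and 14.84 in Homo KO mice, at 15.12, 14.48 and 14.71 in Hete KO mice, and at 14.84, 14.88 and 14.75 in WT mice. The groups of both miRNAs overlapped widely. For let-7d-5p the log2 fold change was 0.10 ± 0.18 (SE) in Homo KO (limma, adjusted p = 0.753) and 0.15 ± 0.18 in Hete KO (limma, adjusted p = 0.760), and for let-7i-5p it was 0.02 ± 0.16 (adjusted p = 0.930) and -0.05 ± 0.16 (adjusted p = 0.907) in the same comparisons with WT.

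miR-98-5p, which differs from let-7a-5p by G11A and A19U, was at 12.66, 12.63 and 12.63 in Homo KO mice, at 12.48, 12.63 and 12.69 in Hete KO mice, and at 12.16, 11.85 and 12.53 in WT mice. All Homo KO mice were above all WT mice, and Hete KO mouse 1 was below WT mouse 3. The log2 fold change against WT was the largest of the members in both knockouts, 0.46 ± 0.17 (SE) in Homo KO (limma, adjusted p = 0.161) and 0.42 ± 0.17 in Hete KO (limma, adjusted p = 0.271). It held ranks 66 to 67 in Homo KO mice and 65 to 70 in Hete KO mice, against ranks 76, 82 and 69 in WT mice 1, 2 and 3. With the muscle miRNAs removed and the normalization repeated, the log2 fold changes were 0.38 ± 0.14 in Homo KO (limma, adjusted p = 0.154) and 0.39 ± 0.14 in Hete KO (limma, adjusted p = 0.195). Its values were then 12.68, 12.56 and 12.56 in Homo KO mice, 12.46, 12.68 and 12.68 in Hete KO mice, and 12.24, 11.94 and 12.46 in WT mice.

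**Figure D2:**
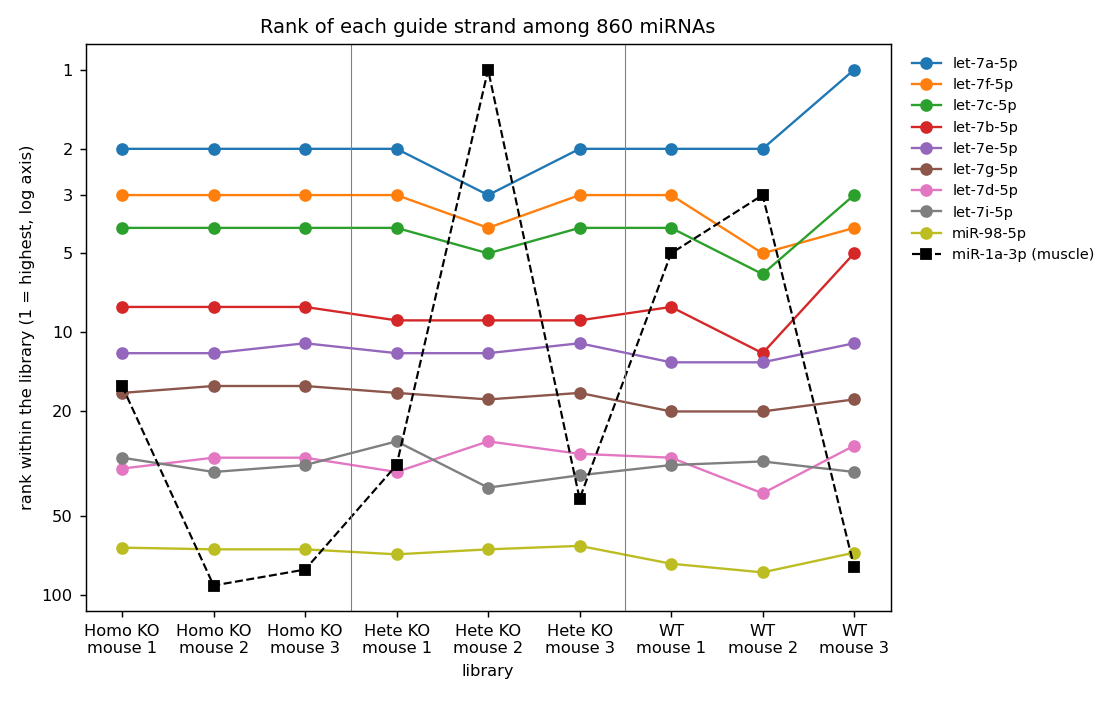
Rank of each guide strand (coloured lines) and of the muscle miRNA miR-1a-3p (dashed black line) among 860 miRNAs in each of the 9 libraries, on a logarithmic axis with rank 1 at the top and Homo KO, Hete KO and WT mice from left to right. let-7a-5p kept ranks 1 to 3 and miR-98-5p ranks 65 to 82, while miR-1a-3p reached rank 1 in Hete KO mouse 2, rank 3 in WT mouse 2 and rank 5 in WT mouse 1.

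Set against the whole table, none of the 9 members passed limma's adjusted threshold of 0.05 in Homo KO against WT, where 3.27% of the 489 miRNAs tested did. At an unadjusted p under 0.05 the count was 2, let-7g-5p and miR-98-5p, where 23.9% of all miRNAs reached it. The same 2 members were higher in every Homo KO mouse than in every WT mouse, a separation that 18.4% of all miRNAs showed. The log2 fold change was above 0 in 8 members, all except let-7a-5p, and in 55.0% of all miRNAs. The median was 0.10 over the members and 0.07 over all miRNAs tested.

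In Hete KO against WT none of the 9 members was called by limma, where 0.409% of all miRNAs were. miR-98-5p was the only member with an unadjusted p under 0.05, which 15.7% of all miRNAs had, and no member was higher in every Hete KO mouse than in every WT mouse, where 8.59% of all miRNAs were. The log2 fold change was above 0 in 5 members and in 47.2% of all miRNAs, with a median of 0.15 over the members and -0.02 over all. Both comparisons use the same 3 WT mice.

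Homo KO and Hete KO mice were also compared directly. No member and 0.0% of all miRNAs were called by limma, no member had an unadjusted p under 0.05 (8.38% of all miRNAs did), and the members' log2 fold changes ran from -0.05 to 0.14, above 0 in 7 members and in 56.6% of all miRNAs, with a median of 0.07 over the members and 0.04 over all. let-7b-5p alone was separated, higher in every Homo KO mouse than in every Hete KO mouse, as were 9.0% of all miRNAs. That separation was the step between ranks 8 and 9, and its log2 fold change was 0.10 ± 0.21 (SE; limma, adjusted p = 0.950). The SE comes from the fit to all 9 libraries, WT included. The SD of let-7b-5p was 0 in both knockout groups and 0.52 in WT mice.

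With the 6 knockout mice as 1 group against WT, none of the members was called by limma, where 8.38% of all miRNAs were. An unadjusted p under 0.05 was reached by 3 members, let-7e-5p, let-7g-5p and miR-98-5p, and by 22.1% of all miRNAs. Their log2 fold changes were 0.41 ± 0.16 (SE; adjusted p = 0.180), 0.28 ± 0.09 (adjusted p = 0.123) and 0.44 ± 0.14 (adjusted p = 0.123) in that order. The log2 fold change was above 0 in 7 members and in 51.3% of all miRNAs. No member was higher in all 6 knockouts than in all WT mice, where 6.34% of all miRNAs were. On the values renormalized without muscle miRNAs 1 member, let-7g-5p, was, where 6.19% of the remaining miRNAs were. WT mouse 3 decided part of this: without it, let-7e-5p (0.65 ± 0.09, adjusted p = 0.0131) and miR-98-5p (0.61 ± 0.13, adjusted p = 0.0314) were called in limma, and in the comparisons of Homo KO and of Hete KO alone with the remaining WT mice let-7e-5p was called (0.65 ± 0.10 in each, adjusted p = 0.0192 in Homo KO and 0.0294 in Hete KO). Of all miRNAs tested, 6.95% were called in both knockouts, 2.86% in Homo KO and 2.45% in Hete KO without that mouse, and the WT libraries left were then the 2 with the most muscle miRNA. Beside these values, miR-126a-5p of endothelium was called lower in the 6 knockouts (log2 fold change -0.50 ± 0.12, limma adjusted p = 0.0370). The more abundant miR-126a-3p was not called there (-0.39 ± 0.16, limma adjusted p = 0.197). Of the 4 leukocyte miRNAs 1 was called higher in the 6 knockouts (limma adjusted p = 0.0428), with log2 fold changes above 0 in 3 and below 0 in 1. In Homo KO against WT, where 3.27% of all miRNAs were called, 1 of these 4, miR-142a-5p, was called higher (log2 fold change 1.26, limma adjusted p = 0.0314). The part of these cell type markers in the members' values was not tested.

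**Figure D3:**
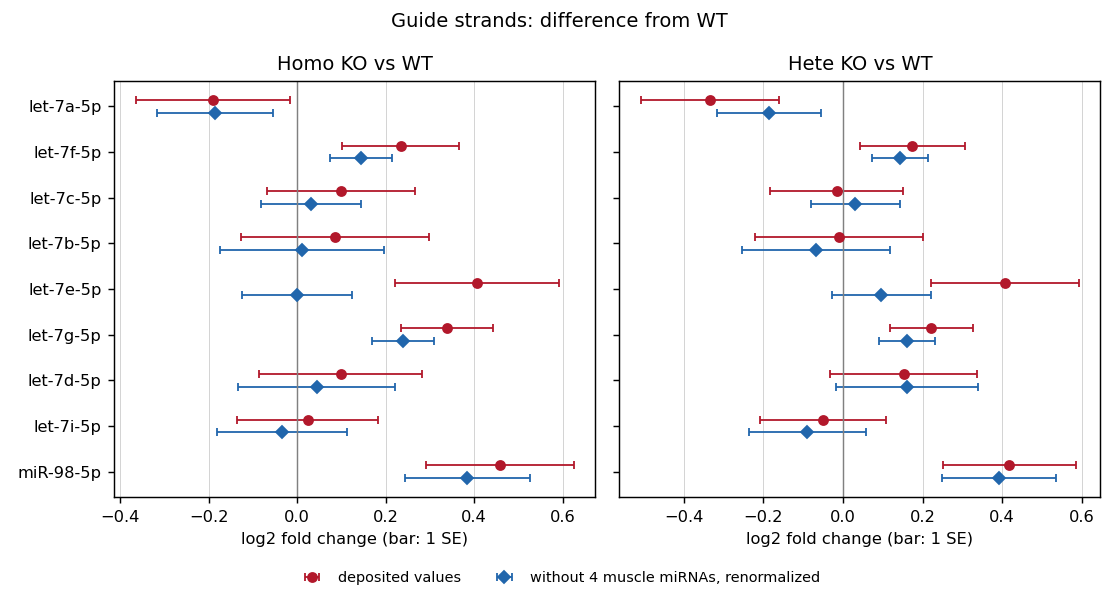
Log2 fold change of each guide strand in Homo KO against WT (left) and in Hete KO against WT (right), with bars of 1 SE from limma, for the deposited values (red circles) and for values renormalized without 4 muscle miRNAs (blue diamonds). let-7e-5p moved to 0.00 in Homo KO and 0.10 in Hete KO without the muscle miRNAs, while let-7g-5p and miR-98-5p stayed above 0 in both.

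The 9 members together made up about the same part of the library in each genotype. On the linear scale they held 34.1%, 34.1% and 34.4% of the summed abundance in Homo KO mice, 33.8%, 28.6% and 34.0% in Hete KO mice, and 32.9%, 27.0% and 40.6% in WT mice. Hete KO mouse 2 and WT mouse 2, with muscle miRNA at 16.8% and 8.97%, were the lowest, and WT mouse 3, in which let-7a-5p took the first rank, was the highest. The means were 34.2% ± 0.186 in Homo KO, 32.2% ± 3.07 in Hete KO and 33.5% ± 6.86 in WT mice (SD, n = 3 each), which differed by less than the spread in WT. With the muscle miRNAs left out of the total, the means were 34.4% ± 0.185, 34.2% ± 0.207 and 35.2% ± 5.53 in Homo KO, Hete KO and WT mice. Hete KO mouse 2 then came to 34.4%, while WT mouse 2 stayed the lowest library at 29.6% and WT mouse 3 the highest at 40.7%. let-7a-5p, let-7c-5p and let-7f-5p summed to 25.2% of the library in 6 of 9 mice because they filled ranks 2 to 4 there, so the size of this share is bound to the shared rank levels.

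**Figure D4:**
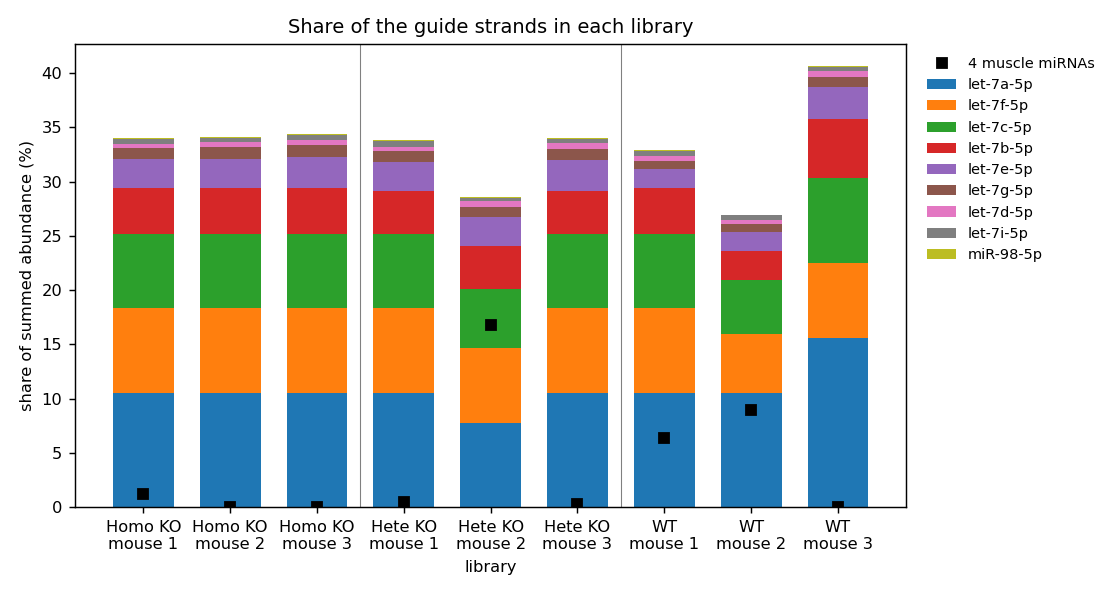
Share of the 9 guide strands in the summed linear abundance of each library (stacked bars, percent), with the share of 4 muscle miRNAs as black squares, for Homo KO, Hete KO and WT mice from left to right. The bars stand at 34.1% to 34.4% in Homo KO mice, between 28.6% and 34.0% in Hete KO mice and between 27.0% and 40.6% in WT mice.

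Within the family sum, let-7a-5p made up 30.7% ± 0.167 in Homo KO, 29.7% ± 2.13 in Hete KO and 36.4% ± 3.92 in WT mice (SD, n = 3 each). let-7e-5p made up 8.06% ± 0.385, 8.61% ± 0.718 and 6.34% ± 0.949 in the same groups, and miR-98-5p 0.279% ± 0.00536, 0.292% ± 0.0388 and 0.210% ± 0.00654. In WT mice 1 and 2 let-7e-5p stood at rank 13, below the large step from rank 12. With the muscle miRNAs removed and the normalization repeated, its mean log2 value was 17.34 in Homo KO, 17.44 in Hete KO and 17.34 in WT mice. The value of let-7a-5p in WT rested on 2 mice, with 31.9% in WT mouse 1, 39.0% in WT mouse 2 and 38.4% in WT mouse 3.

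The balance between members, taken as the difference of 2 log2 values within a library, was compared between the 6 knockouts and WT, a comparison added after the values were seen. Of the 36 pairs 7, or 19.4%, had knockout and WT values that did not overlap, where 12.8% of the pairs of all tested miRNAs did. let-7a-5p exceeded miR-98-5p by 6.76, 6.79 and 6.79 in Homo KO mice, by 6.94, 6.37 and 6.73 in Hete KO mice, and by 7.26, 7.57 and 7.46 in WT mice. All knockouts were below all WT mice, with means of 6.73 ± 0.19 in knockouts (SD, n = 6) and 7.43 ± 0.16 in WT (SD, n = 3). let-7a-5p exceeded let-7g-5p by 3.28 ± 0.13 in knockouts and 3.82 ± 0.20 in WT mice, and let-7e-5p by 1.86 ± 0.17 in knockouts and 2.53 ± 0.10 in WT mice. The other separated pairs were miR-98-5p with let-7b-5p, let-7c-5p and let-7d-5p, and let-7c-5p with let-7e-5p.

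On values renormalized without muscle miRNAs 5 pairs, or 13.9%, did not overlap, where 13.0% of all pairs did, a share near that of all pairs. Each of these 5 had an adjusted p of 0.171 in the same permutation test. The pairs separated in both versions were 4: let-7a-5p with let-7g-5p, and miR-98-5p with let-7a-5p, let-7b-5p and let-7c-5p. let-7a-5p and let-7e-5p overlapped on these values, at 1.99 ± 0.16 in knockouts and 2.22 ± 0.15 in WT mice. On the deposited values 13 member pairs, or 36.1%, were separated without WT mouse 1, where 17.0% of all pairs were, and 13 without WT mouse 3, where 21.7% of all pairs were. Without WT mouse 2 there were 10, or 27.8%, against 21.9% of all pairs. With any 1 knockout library left out there were 7, or 19.4%, against 13.6% to 19.6% of all pairs.

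**Figure D5:**
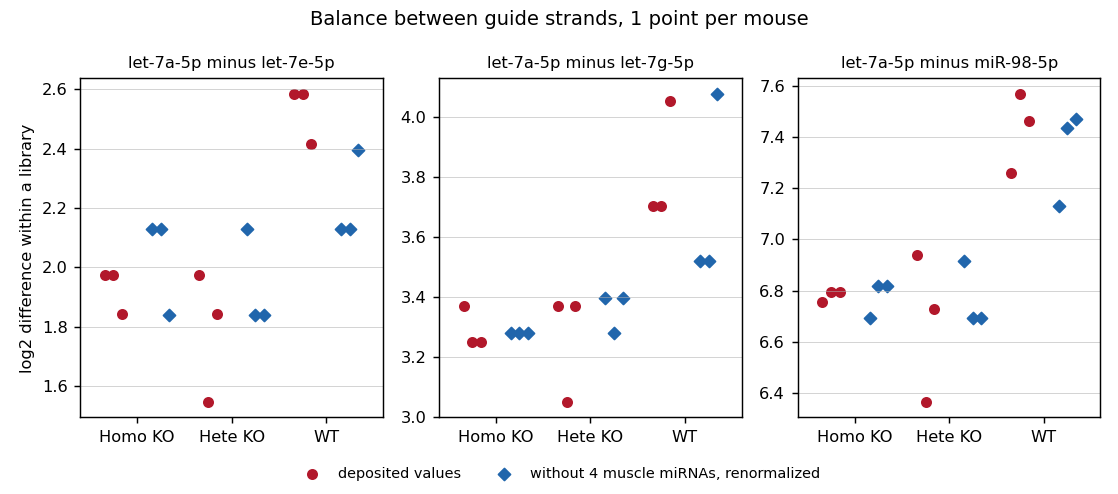
Difference of 2 log2 values within a library, 1 point per mouse, for let-7a-5p minus let-7e-5p, minus let-7g-5p and minus miR-98-5p in Homo KO, Hete KO and WT mice, from the deposited values (red circles) and from values renormalized without 4 muscle miRNAs (blue diamonds). In the right panel the deposited knockout values lie between 6.37 and 6.94 and the WT values between 7.26 and 7.57; in the left panel the blue values of knockouts and WT mice overlap.

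The passenger strands, the 3p partners of the guides that are mostly degraded after loading, were measured for 12 arms, of which 11 passed the filter. None was called by limma in any of the 4 comparisons, where 3.27%, 0.409%, 0.0% and 8.38% of all miRNAs were, in the order that follows. At an unadjusted p under 0.05 there was 1 in Homo KO against WT, 0 in Hete KO against WT, 1 in Homo KO against Hete KO and 0 in both knockouts against WT. Of all miRNAs, 23.9%, 15.7%, 8.38% and 22.1% reached it in the same order. The most abundant was let-7d-3p, at 11.57, 11.55 and 11.66 in Homo KO mice, 11.74, 11.66 and 11.74 in Hete KO mice, and 11.34, 11.11 and 11.71 in WT mice. WT mice 1 and 2 were below all knockouts and WT mouse 3 was among them. let-7a-1-3p was next, at 10.84, 10.85 and 11.16 in Homo KO mice, 11.01, 10.75 and 10.75 in Hete KO mice, and 10.87, 10.62 and 10.75 in WT mice, with overlapping groups. let-7c-2-3p had the same value as let-7a-1-3p in 6 of 9 libraries, so that reads may be shared between these 2 strands.

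For the 6 members that come from a single hairpin, the guide exceeded its passenger in every library, and the gap differed widely among members. It was smallest for let-7d, 3.32 ± 0.17 on the log2 scale (SD, n = 9), and next for miR-98, 5.82 ± 0.21. It was 9.38 ± 0.26 for let-7b, 10.07 ± 0.37 for let-7i, 10.50 ± 0.43 for let-7e and 12.16 ± 0.50 for let-7g. For miR-98 the gap was 6.05 ± 0.02 in Homo KO, 5.81 ± 0.09 in Hete KO and 5.61 ± 0.13 in WT mice (SD, n = 3 each), and for let-7e it was 10.62 ± 0.18, 10.85 ± 0.21 and 10.03 ± 0.34 in the same groups. These differences between groups were not tested, and the WT gap of let-7e includes the rank 13 level of let-7e-5p in WT mice 1 and 2.

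Some let-7 hairpins are transcribed beside hairpins of the miR-99/100 and miR-125 families, and 5 of these neighbours were tested. None was called in any comparison by limma, and at an unadjusted p under 0.05 there were 2 in Homo KO against WT, 0 in Hete KO against WT, 0 in Homo KO against Hete KO and 1 in both knockouts against WT. Of all miRNAs, 23.9%, 15.7%, 8.38% and 22.1% reached that p in the same order. miR-125b-5p, which shares its seed with the lin-4 miRNA of worms, was at 15.94, 15.94 and 16.05 in Homo KO mice, 16.17, 15.72 and 16.17 in Hete KO mice, and 15.94, 15.22 and 16.17 in WT mice, with overlapping groups. miR-99a-5p, whose hairpin lies 657 bases from Mirlet7c-1, was at 15.04, 15.34 and 15.34 in Homo KO mice, 15.04, 14.99 and 15.04 in Hete KO mice, and 14.80, 14.80 and 14.88 in WT mice. All knockouts were above all WT mice, a separation that 6.34% of all miRNAs showed. The log2 fold change of miR-99a-5p in Homo KO against WT was 0.41 ± 0.11 (SE; limma, adjusted p = 0.0656), against 0.20 ± 0.11 in Hete KO (limma, adjusted p = 0.412). let-7c-5p, the member beside it, had 0.10 ± 0.17 in Homo KO.

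The miRNAs whose pattern was most like that of the members were sought by the correlation of 467 other tested miRNAs with the mean of the 9 members over 9 libraries. The mean itself was 16.80, 16.81 and 16.83 in Homo KO mice, 16.78, 16.65 and 16.80 in Hete KO mice, and 16.65, 16.37 and 16.90 in WT mice. The most like were miR-125b-5p (Pearson r = 0.926, Spearman rho = 0.656), miR-125a-5p (r = 0.90, rho = 0.741) and miR-191-5p (r = 0.898, rho = 0.868). The points share the rank levels of their libraries. Without WT mice 2 and 1, the libraries farthest from the median of the mean, r was 0.773 for miR-125b-5p, 0.362 for miR-125a-5p and 0.729 for miR-191-5p, so the likeness of miR-125a-5p rested on those 2 mice. The muscle miRNA miR-133a-3p was among the 3 least like, at r = -0.791 (rho = -0.887).

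Among the members, the correlation with their own mean was highest for let-7c-5p (r = 0.893, rho = 0.772) and lowest for let-7i-5p (r = 0.0258, rho = -0.269). Without WT mice 2 and 1 this order did not hold: r was 0.981 for let-7c-5p and 0.417 for let-7i-5p, and the lowest were miR-98-5p (-0.231) and let-7d-5p (-0.151). In WT mouse 2, which had the lowest mean, let-7b-5p, let-7c-5p, let-7d-5p, let-7f-5p and miR-98-5p were each at their lowest value of the 9 libraries, while let-7i-5p was at 14.88, above its mean. let-7e-5p and let-7g-5p were at their lowest value in both WT mouse 2 and WT mouse 1.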

How the data were processed

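The authors deposited 1 file per mouse with a log2 value for each of 860 mature miRNAs. Trizol extraction and the TruSeq small RNA kit are named by the labels' protocols, and mm10 as the build by the submitters' processing notes. The sources used here do not give the aligner, counter, miRNA annotation or normalization. The deposited files are named for FPKM, but their log2 values hold the same ranked levels in every library, so they were treated as quantile-normalized log2(x + 1) values, with no pseudocount added. Read numbers are unknown, so counting intervals could not be given.

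Testing required at least 3 libraries above the lowest value of each library and a mean of 3.46, log2(10 + 1), or more, which 489 miRNAs met and 371 did not. limma 3.58.1 (R 4.3.3; lmFit, then eBayes with trend) was fitted to all 9 libraries without covariates, with Benjamini-Hochberg adjustment over all tested miRNAs and a threshold of 0.05, below which a miRNA is called. The script was tested on simulated data. Linear shares were taken from values raised back to the linear scale. Groups and replicate numbers came from the genotype labels and titles, and p-values measure the spread between individual mice.

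All 9 members are named, with the 3 miRNAs of highest correlation to their mean, miRNAs that trade ranks with a member, called miRNAs of the passenger and neighbour lists and the 2 most abundant of each. The members, the lists of passenger strands, locus neighbours and cell type markers, and the comparison of both knockouts with WT were chosen with earlier results of these data known, and the comparison of member pairs after the values were seen. Muscle miRNAs were removed and the deposited values quantile normalized again as 1 of the alternatives, beside other filters, scalings, covariates and left-out libraries. Mature sequences and hairpins are from RefSeq, and host genes from GENCODE, both on GRCm38.p6. Figures were drawn with matplotlib 3.10.9 in Python 3.11.15.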

Additional observations from a re-analysis of the deposited data

Results flagged for a closer look

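let-7b-5p drew attention because every Homo KO mouse lay above the mean of the WT mice and every Hete KO mouse below it. Its values were 18.09 in all Homo KO mice, 17.99 in all Hete KO mice, and 18.09, 17.45 and 18.47 in WT mice. The effects against WT differed by 0.0952 on the log2 scale, which is the step between the shared levels of ranks 8 and 9, and the direct comparison of Homo KO with Hete KO gave 0.10 ± 0.21 (SE; limma, adjusted p = 0.950). That SE includes the spread of the WT mice, since the knockouts did not vary within either group.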

How the results depend on the processing

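The deposited values hold the same ranked levels in every library, so differences finer than a rank step could not be seen. They give no depth, and each comparison rests on 3 mice per genotype. Under the alternatives, 415 of 462 member values kept their direction and their side of the threshold, 2 were exactly 0 and 30 reversed, 2 of which also passed the threshold. Another 15 kept their direction and passed the threshold that they had missed, and the cause was not tested except where stated. Repeating the fit with the replicate number as a block called 0 members in all 4 comparisons, and no call of a member changed. Same-numbered libraries correlated in their deviations between -0.28 and 0.55, and differently numbered ones between -0.70 and 0.54. These ranges overlap, so they do not settle whether the numbers pair the mice.

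With sample weights 1 member was called by limma in Homo KO against WT (let-7g-5p, 0.37, adjusted p = 0.0216), where 15.1% of all miRNAs were. Under the same weights 3 members were called in both knockouts against WT (let-7e-5p, let-7g-5p and miR-98-5p), where 18.0% of all miRNAs were. let-7b-5p in Homo KO turned to -0.0016 with these weights. Without the 3 libraries richest in muscle miRNA (WT mice 1 and 2 and Hete KO mouse 2), 4 members were called in Homo KO, in Hete KO and in both knockouts against WT, and 1 in Homo KO against Hete KO, where 8, 10, 9 and 4 of all miRNAs were called in these comparisons. WT is then 1 library, assumed to vary like the others, and the knockouts left hold the same rank levels, so that their spread is 0. In that setting let-7b-5p (-0.38), let-7c-5p (-0.18), let-7d-5p (-0.18) and let-7e-5p (-0.087) reversed in Homo KO, let-7d-5p (-0.21), let-7e-5p (-0.066) and let-7i-5p (0.17) in Hete KO, and let-7e-5p (-0.076) in both knockouts. With mean muscle miRNA as a covariate let-7b-5p (-0.074) and let-7c-5p (-0.058) reversed in Homo KO, and let-7b-5p (-0.038) in Homo KO against Hete KO. With muscle miRNAs removed and the normalization repeated, let-7i-5p in Homo KO (-0.035) and let-7c-5p in Hete KO (0.032) reversed. With a covariate for how many miRNAs stood at a library's lowest value, let-7a-5p in Homo KO (0.090) and let-7b-5p (0.26), let-7c-5p (0.30) and let-7i-5p (0.13) in Hete KO reversed.

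Leaving out 1 library at a time called 0 to 1 members in Homo KO, 0 to 1 in Hete KO and 0 to 2 in both knockouts against WT, above 0 only without WT mouse 3, and 2 to 25, 1 to 24 and 1 to 49 of all miRNAs. The log2 fold changes that reversed ran in Homo KO from -0.19 to 0.32 for let-7b-5p, -0.090 to 0.24 for let-7c-5p, -0.11 to 0.24 for let-7d-5p and -0.028 to 0.071 for let-7i-5p. In Hete KO they ran from -0.29 to 0.22, -0.20 to 0.12, -0.059 to 0.29 and -0.22 to 0.10 for the same 4 members. The share of the family was 34.1% to 34.3% in Homo KO, 31.2% to 33.9% in Hete KO and 29.9% to 36.8% in WT mice, and as a share of summed log2 values it was 3.34%, 3.33% and 3.31% in these groups. Over all miRNAs, sample weights called 74 in Homo KO, 34 in Hete KO and 88 in both knockouts against WT, the replicate block called 25, 15 and 33, and the covariate for lowest values called 0 in each.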

Other observations

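let-7j and let-7k are annotated mouse miRNAs outside the 9 members, and they are described here after their values were seen. Their sequences from RefSeq (GRCm38.p6) follow, 5′ to 3′, with bases 2 to 8 in capitals, because let-7k carries the seed of the members and let-7j does not.
let-7j: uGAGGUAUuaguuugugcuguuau
let-7k: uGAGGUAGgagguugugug
Against let-7a-5p, and counted from 1 at the 5′ end, let-7k, with 19 bases, differed by U9G, A17G and A19G, and let-7j by G8U in the seed and by G12U, A17G, U18C and A19U outside it. let-7k was at 10.68, 10.95 and 10.92 in Homo KO mice, at 10.28, 10.95 and 11.11 in Hete KO mice, and at 8.89, 9.50 and 10.36 in WT mice. Hete KO mouse 1 was below WT mouse 3, and all other knockouts were above all WT mice. In both knockouts against WT its log2 fold change was 1.23 ± 0.30 (SE; limma, adjusted p = 0.0407), where 8.38% of all miRNAs were called. The call was lost in limma without a variance trend (adjusted p = 0.0622), with a covariate for mean muscle miRNA (0.0771) or for how many miRNAs stood lowest (0.224), without the 3 libraries richest in muscle miRNA (0.676), and in 7 of the 9 fits that left out 1 library. Its log2 fold change was 1.23 without the trend, 1.07 and 1.18 with these covariates, 0.41 without the 3 libraries, and 0.88 to 1.61 with 1 library left out. let-7k differs at 1 base from the first 19 bases of let-7b-5p and at 2 from those of let-7e-5p, so reads may be shared with them. let-7j was at 14.65, 14.41 and 14.48 in Homo KO mice, at 14.65, 13.89 and 14.48 in Hete KO mice, and at 14.59, 14.59 and 14.41 in WT mice, with overlapping groups. Over its first 22 bases it differs at 1 base from let-7i-5p, so reads may be shared between these as well.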
